A study of Mus musculus with 30 samples.

Results

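The endoplasmic reticulum (ER) chaperones and unfolded protein response genes examined here are 33 mouse genes, a list made by gene name from the biology of the ER. It was chosen with earlier results of these data known, so it is not independent of them. All 33 had a row in the deposited table of 11249 genes, and the lowest recovered count of any of them in any library was 24 reads. They were followed in gastrocnemius, a hindlimb muscle below both lesions, and in triceps brachii, a forelimb muscle, of male mice 3 days after surgery. Mice had a sham operation, a spinal cord injury at the high thoracic level T3, or one at the low thoracic level T9; the titles call the injuries transections. The labels used here name no strain, age, allele or drug for any group. The 6 groups held 4 gastrocnemius libraries each and 6 triceps libraries each, 30 in all, with 24 libraries from 12 mice that gave both muscles. Each library was taken from about 30 mg of whole muscle, so that fewer cells of a type and less RNA per cell cannot be told apart.

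Proteins that are secreted or sit in membranes enter the ER through the Sec61 translocon and are folded there by chaperones such as BiP (encoded by Hspa5), by the lectin chaperones calnexin (Canx) and calreticulin (Calr), and by protein disulphide isomerases. When unfolded proteins build up, the sensors IRE1 (Ern1), PERK (Eif2ak3) and ATF6 (Atf6) start the unfolded protein response: IRE1 splices the mRNA of the transcription factor Xbp1, PERK slows translation and raises ATF4, and cut ATF6 enters the nucleus. Proteins that cannot be folded are drawn back out of the ER and destroyed, a process called ER-associated degradation (ERAD), in which Derl1, Sel1l, Syvn1 and Herpud1 take part. In muscle fibres the ER is continuous with the sarcoplasmic reticulum, which stores calcium. The data are levels of whole genes and do not separate spliced from unspliced Xbp1.

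In sham gastrocnemius the members covered a wide range of levels. On the scale of CPM (reads scaled to a fixed library size of 1000000) per kilobase of exon, P4hb, a disulphide isomerase, had the highest level at 57.31 ± 3.42 (SD, n = 4), followed by Calr at 53.5 ± 7.11. The translocon-associated Ssr3 stood at 39.8 ± 5.17, Herpud1 at 38.7 ± 10.6 and Hspa5 at 33.01 ± 8.03. The difference between P4hb and Calr was smaller than the SD of Calr, and those among Ssr3, Herpud1 and Hspa5 were smaller than the SD of Herpud1, while Calr stood more than 1 SD above Ssr3. The transcription factor Xbp1 stood at 14.1 ± 0.919 on the same scale. The sensors were among the lowest members, with Atf6 at 2.55 ± 0.702, Ern1 at 1.39 ± 0.590 and Eif2ak3 lowest of all at 0.537 ± 0.181.

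Several members carry in their promoter the letters of a known response element, and these are shown because the elements are named for the response that the members belong to. RefSeq promoter windows, from 250 bases before to 50 after a start, were matched for 27 of the 33 members on build GRCm38.p6 and searched on both strands. The ER stress response element (ERSE) was taken as CCAAT and CCACG with 9 bases between them. It was found in 7 of 27 members (25.9%) and in 37 of 27025 genes with a window (0.137%). ERSE-II was taken as ATTGG and CCACG with 1 base between them, and it was found in Herpud1 and Dnajb11, 2 of 27 members (7.41%), against 12 of all genes (0.0444%). Capitals mark the element from its first to its last base, the strand shown is that of the gene, and in Calr and in the second match of Hsp90b1 the element lies on the opposite strand. Each stretch ended between 21 and 139 bases upstream of the annotated start.
Hspa5 (chr2:34772020-34772048, plus strand): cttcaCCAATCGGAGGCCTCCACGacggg
Canx (chr11:50325795-50325823, minus strand): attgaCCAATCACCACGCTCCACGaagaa
Calr (chr8:84847070-84847098, minus strand): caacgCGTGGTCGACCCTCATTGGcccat
Pdia6 (chr12:17266486-17266514, plus strand): agagaCCAATGAAAGGCGGCCACGgcgtg
Dnajc3 (chr14:118937822-118937850, plus strand): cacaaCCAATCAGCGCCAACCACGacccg
Syvn1 (chr19:6046527-6046555, plus strand): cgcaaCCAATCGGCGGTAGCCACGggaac
Hsp90b1 (chr10:86705528-86705661, minus strand): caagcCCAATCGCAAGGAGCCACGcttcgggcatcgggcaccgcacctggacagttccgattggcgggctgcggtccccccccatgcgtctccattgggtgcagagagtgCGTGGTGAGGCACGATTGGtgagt
Herpud1, ERSE-II (chr8:94386372-94386392, plus strand): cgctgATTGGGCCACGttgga

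The shorter UPRE core TGACGTG was found in Hspa5 only, 1 of 27 members (3.7%), and in 2.22% of all genes. The CARE core TTGCATCA, read by ATF4 and its partners, was found in Herpud1 only, 1 of 27 members, and in 1.03% of all genes. These are matches of letters and not measured binding. The ER stress elements and the members were both taken from what is known of 1 response, so the shares are a description and not a test.

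Depth was 13.3 to 23.4 M recovered reads (M, 1000000 reads), except for 1 triceps T3 library (replicate 5) with 88.8 M. All 12 markers of muscle fibres had a row in the table. Libraries differed in their median log2 CPM over all genes, which was 3.90 ± 0.18 (SD, n = 4) in sham, 4.17 ± 0.10 in T3 and 4.30 ± 0.02 in T9 gastrocnemius, and 3.74 ± 0.28, 3.97 ± 0.13 and 3.91 ± 0.14 (n = 6 each) in triceps. The 4 lowest medians ran from 3.29 to 3.67: in triceps they belonged to sham replicate 3, sham replicate 4 and T9 replicate 1, and in gastrocnemius to sham replicate 4. Because this median moved with injury, the count of members in each comparison is given with the share of all genes called, and in most again after each library was centred on its own median. The share of reads from mitochondrial genes moved too: it was 9.54 to 13.1% in sham, 7.48 to 8.06% in T3 and 7.66 to 9.27% in T9 gastrocnemius, where neither injured group overlapped with sham, and 11.03 to 16.8%, 10.4 to 16.6% and 12.1 to 17.5% in triceps, where all groups overlapped. Its part in the members' changes was not tested.

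The first comparison asked which members changed in hindlimb muscle after T3 injury. In the gastrocnemius, 19 of 33 members rose and 0 fell after T3 injury (limma, adjusted p under 0.05), or 57.6%, against 27.1% of all genes that rose and 6.65% that fell. The median member changed by 0.60 on the log2 scale, beside 0.27 for the median of all genes. After centring, 11 members rose, against 14.6% of all genes, and 1 fell, Sec61b, against 14.5%. In 17 members all 4 T3 libraries lay above all 4 sham libraries, against 23.9% of all genes. By role, 4 of 7 luminal chaperones and cochaperones, both lectin chaperones, 1 of 4 disulphide isomerases (P4hb), 3 of 5 sensors and transcription factors, 6 of 8 ERAD members and 3 of 7 translocon members (Sec61a1, Sec62 and Sec63) rose.

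**Figure D1:**
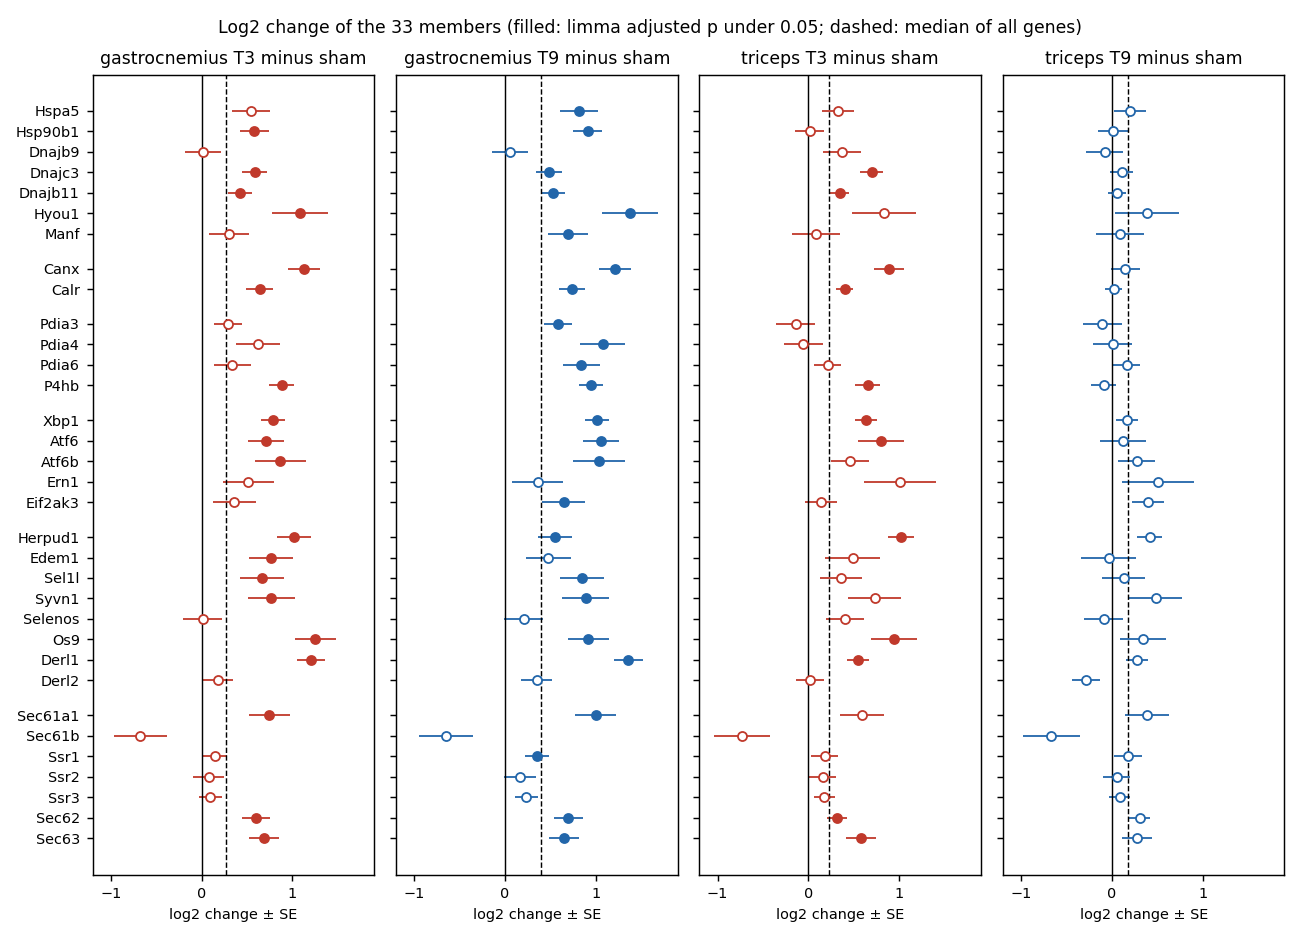
Log2 change ± SE of each of the 33 members (rows, grouped by role from luminal chaperones at the top to the translocon at the bottom) in gastrocnemius and triceps after T3 or T9 injury against sham; filled points had a limma adjusted p under 0.05 and the dashed line is the median of all genes. Most gastrocnemius points lie right of 0, 12 triceps points are filled after T3 and 0 after T9, and Sec61b lies left of 0 in all 4 panels.

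Derl1, a channel-like component of the ERAD machinery in the ER membrane (chr15:57869502-57892448, build GRCm38), had the smallest adjusted p of the members. Its 4 sham gastrocnemius libraries held 59.5, 61.4, 70.6 and 48.8 CPM and its 4 T3 libraries 113, 160.4, 148 and 133 CPM. The groups did not overlap, and the log2 change was 1.21 ± 0.16 (SE; limma, adjusted p = 0.000127). P4hb, on chromosome 11 (chr11:120560298-120573253), held 161, 152, 174 and 169 CPM in sham and 289, 335, 309 and 277 CPM after T3. Every T3 library was again above every sham library, with a log2 change of 0.88 ± 0.13 (adjusted p = 0.000365). Canx (chr11:50293961-50325673) held 63.9, 79.2, 80.9 and 45.4 CPM in sham and 132, 149, 157 and 138 CPM after T3. Its log2 change was 1.13 ± 0.18 (adjusted p = 0.000418), with no overlap.

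Xbp1 (chr11:5520659-5525893), the transcription factor of the IRE1 branch, rose from 48.0, 41.7, 45.6 and 48.1 CPM to 68.0, 81.8, 89.4 and 78.7 CPM, by 0.79 ± 0.13 (limma, adjusted p = 0.000665). Herpud1 (chr8:94386438-94395377), which brings ERAD components together, rose from 90.0, 101, 114 and 56.1 CPM to 196, 201, 159 and 156 CPM, by 1.02 ± 0.19 (adjusted p = 0.00155). Both genes were higher in all T3 libraries than in any sham library. Os9, a lectin that passes misfolded glycoproteins to ERAD, rose by 1.25 ± 0.23, the largest fitted change of the 33 members in this comparison. Hyou1, a luminal chaperone of the Hsp70 family, rose by 1.08 ± 0.31 (adjusted p = 0.0171).

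Hspa5 (chr2:34771970-34777547) had 168, 160.2, 138 and 92.3 CPM in sham and 155, 241, 245 and 170.3 CPM after T3. T3 replicate 1 lay within the sham range, and the log2 change of 0.54 ± 0.21 did not pass (limma, adjusted p = 0.0591). Dnajb9, a cochaperone of BiP and a common target of Xbp1, had 45.6, 25.5, 33.1 and 55.0 CPM in sham and 35.3, 41.6, 39.3 and 38.1 CPM after T3. Its T3 libraries all lay inside the sham range, with a difference of 0.01 ± 0.20 (95% interval -0.42 to 0.44). Dnajc3, a cochaperone of BiP that also inhibits eIF2α kinases, rose by 0.58 ± 0.14 (adjusted p = 0.00721). Sec61b, the β subunit of the translocon, differed by -0.67 ± 0.29 (adjusted p = 0.0899).

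The second comparison asked the same of T9 injury, against the same 4 sham libraries. In the gastrocnemius, 25 of 33 members rose and 0 fell after T9 injury (limma), or 75.8%, against 37.6% of all genes that rose and 5.67% that fell. The median member changed by 0.70, beside 0.40 for all genes. After centring, 9 members rose (Hsp90b1, Canx, Pdia4, P4hb, Xbp1, Atf6, Hyou1, Sec61a1 and Derl1), against 11.1% of all genes, and 1 fell, again Sec61b, against 12.4%. In 24 members every T9 library lay above every sham library, against 34.8% of all genes. By role, 6 of 7 luminal chaperones and cochaperones, both lectin chaperones, all 4 disulphide isomerases, 4 of 5 sensors and transcription factors, 5 of 8 ERAD members and 4 of 7 translocon members rose.

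Derl1 stood at 144, 153, 135 and 184 CPM after T9, a log2 change of 1.36 ± 0.16 (limma, adjusted p = 7.22e-05). Xbp1 stood at 89.2, 95.3, 81.5 and 105 CPM, a change of 1.01 ± 0.13 (adjusted p = 0.00014). P4hb stood at 305, 288, 284 and 398 CPM, a change of 0.95 ± 0.13 (adjusted p = 0.00027). None of these 12 values overlapped the sham values given above.

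Hspa5 rose to 262, 225, 201 and 280.1 CPM, by 0.82 ± 0.21 (limma, adjusted p = 0.0086), with every library above the sham range. Canx rose to 138, 157, 141 and 178 CPM, by 1.21 ± 0.18 (adjusted p = 0.000308). Herpud1 rose to 132, 131, 129 and 119.9 CPM, by 0.55 ± 0.19 (adjusted p = 0.0323). Dnajb9, at 42.7, 42.3, 35.5 and 38.8 CPM, again lay inside the sham range (0.06 ± 0.20, adjusted p = 0.834).

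Of the 7 members with an ERSE 7 rose in the gastrocnemius after T9 injury and 5 after T3 injury, beside 18 and 14 of the other 26 members. Those 26 include the members without a matched window (Atf6, Hyou1, Manf, Sec61a1, Ssr2 and Derl1), which could not be searched for an ERSE. After centring, 2 of the 7 rose after T9 (Hsp90b1 and Canx) and 3 after T3 (Canx, Calr and Dnajc3), beside 7 and 8 of the other 26. Of the other 30 genes with an ERSE, 5 had a row in the table (Acacb, Alg12, Creld2, Hnrnpa3 and Pan2), and 3 of these rose after T3 and 3 after T9. Of the other 10 genes with an ERSE-II, 7 had a row, of which 1 rose and 1 fell after T3 and 2 rose and 1 fell after T9. The gene that fell was Lgalsl each time, with -0.46 ± 0.16 and -0.85 ± 0.16.

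The sensors also changed: Atf6 rose by 0.71 ± 0.20 after T3 and 1.06 ± 0.20 after T9, and Eif2ak3 by 0.65 ± 0.23 after T9. After centring Eif2ak3 did not pass (0.25, adjusted p = 0.36). With the library median as a covariate its value was -0.15 (limma, adjusted p = 0.796). Ern1, at 0.52 ± 0.28 after T3 and 0.36 ± 0.28 after T9, passed in neither. Hyou1 had the largest fitted change after T9, 1.37 ± 0.31, which was 0.98 after centring. It was -0.14 with the library median as a covariate (limma, adjusted p = 0.786), a covariate that itself moved with the injury.

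**Figure D2:**
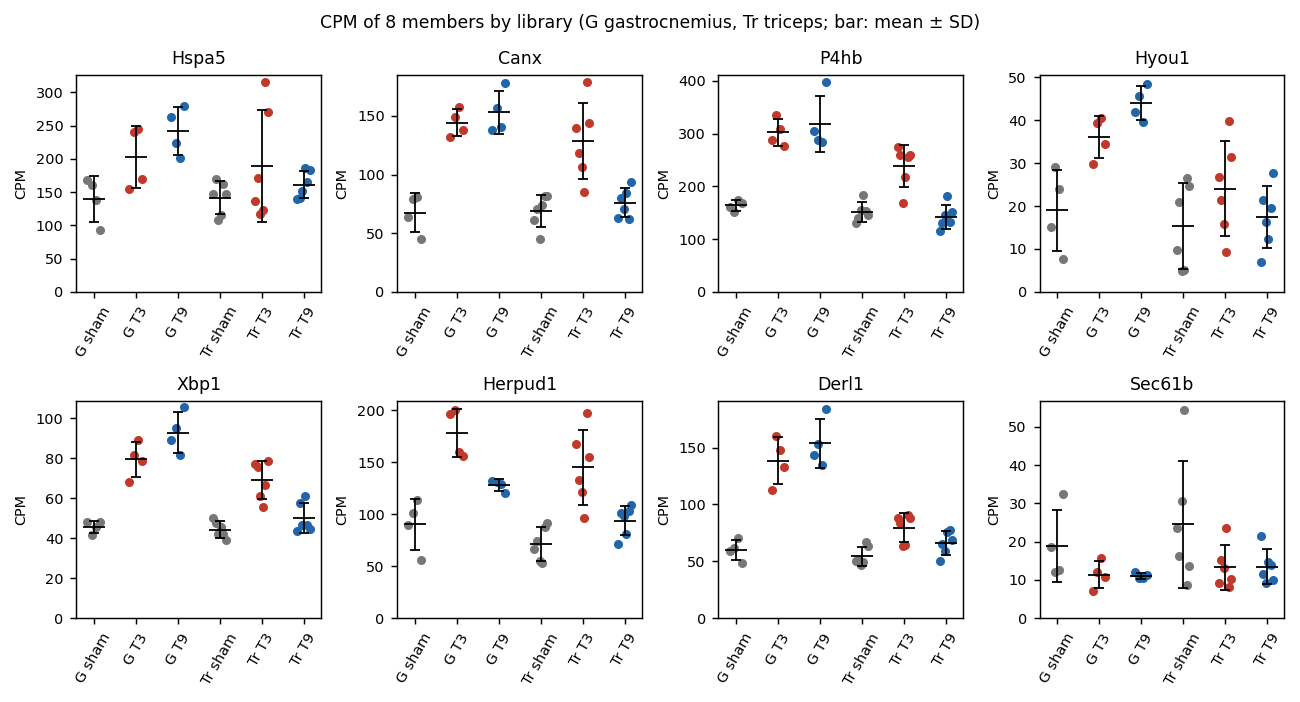
CPM of 8 members in every library of the 6 groups (G, gastrocnemius; Tr, triceps; each point is a library, bars are the mean ± SD, linear axes from 0); Hyou1 and Sec61b were added after their values were seen. Canx, P4hb, Xbp1 and Derl1 in injured gastrocnemius lie above every sham point, triceps T9 points of P4hb overlap the sham points, and the mean of Sec61b is highest in sham in both muscles.

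The plot of CPM by library shows where single libraries set a group's spread. Hyou1 had 15.2, 29.1, 23.99 and 7.69 CPM in sham gastrocnemius, and Sec61b had 18.6, 12.1, 12.7 and 32.4 CPM in the same order. Replicate 4, which had the lowest library median of this group, was thus lowest for Hyou1 and highest for Sec61b. Without it, 15 members rose after T3 and 24 after T9. Across replicates left out in turn, 13 of the 19 T3 calls and 20 of the 25 T9 calls passed each time. The T3 calls that did not were Atf6b, Dnajb11, Edem1, Sec61a1, Sel1l and Syvn1, and the T9 calls were Dnajc3, Eif2ak3, Herpud1, Manf and Ssr1.

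Other cell types were followed by their markers. The summed level of 4 satellite cell markers with a row (Cdh15, Myf5, Myod1 and Vcam1; Pax7 and Calcr were not analysed here) was 28.3 to 48.7 CPM in sham, 65.9 to 196 CPM in T3 and 188 to 210.0 CPM in T9 gastrocnemius. Of these 4 markers 1 rose after T3 and 3 after T9. Of 9 macrophage markers 1 rose after T3 and 3 after T9, among them Cd68 at 3.22 ± 0.47 after T9, and their summed level was 21.2 to 65.6 CPM in sham, 45.2 to 53.9 in T3 and 40.0 to 60.03 in T9. Of 10 fibroblast markers 6 fell after T3 and 3 after T9, and their summed level was 340.4 to 472, 293 to 401 and 337 to 448 CPM. Of the B and plasma cell markers only Ighm had a row; it fell by 2.37 ± 0.38 after T3 and by 2.34 on the same scale after T9. Of 12 muscle fibre markers 4 fell after each injury and 1, Myh1, rose after T3 (1.24 ± 0.44), of 8 endothelial markers 1 rose after each, of 4 Schwann cell markers 1 rose after T9, and of 4 adipocyte markers 1 fell after each. No listed marker of T and NK cells or of neutrophils had a row. The part of these cells in the members' changes was not tested.

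Between the 2 injuries themselves, 0 of 33 members differed in the gastrocnemius (limma), beside 1.63% of all genes in either direction. At an unadjusted p under 0.05 there were 2, Herpud1 and Pdia6, beside 15.2% of all genes. The adjusted count was also 0 with voom weights and, against 2.28% of all genes, after centring. Herpud1 was higher in all 4 T3 libraries than in any T9 library, by 0.47 ± 0.19 (95% interval 0.06 to 0.88, adjusted p = 0.253). Os9 was the other member whose T3 libraries all lay higher, so that the 2 together compare with 5.89% of all genes. Pdia6 had 35.7, 50.9, 51.9 and 39.5 CPM after T3 and 68.4, 56.4, 51.7 and 74.5 CPM after T9, a difference of -0.50 ± 0.21 (adjusted p = 0.26). Hsp90b1, the ER form of Hsp90, had 91.5, 113, 124 and 95.4 CPM after T3 and 142, 128, 117 and 144 CPM after T9, a difference of -0.33 ± 0.16 (95% interval -0.68 to 0.01, adjusted p = 0.346). Both pairs of groups overlapped.

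The difference for Xbp1 was -0.23 ± 0.13 (95% interval -0.51 to 0.05), for Canx -0.09 ± 0.18 (-0.46 to 0.29) and for Hspa5 -0.27 ± 0.21 (-0.73 to 0.18). For Dnajb9 it was -0.04 ± 0.20.

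In the forelimb muscle the 2 injuries gave different counts. In triceps, 12 of 33 members rose and 0 fell after T3 injury (limma), or 36.4%, against 19% of all genes that rose and 4.32% that fell. The median member changed by 0.40, beside 0.23 for all genes. After centring, 6 rose (Canx, Xbp1, Atf6, Dnajc3, Herpud1 and Os9), against 10.1% of all genes. In 6 members (Canx, Xbp1, Dnajc3, Dnajb11, Herpud1 and Sec62) every T3 library lay above every sham library, against 5.62% of all genes. The 12 were both lectin chaperones, P4hb, Xbp1, Atf6, Dnajc3, Dnajb11, Herpud1, Os9, Derl1, Sec62 and Sec63. With each of the 18 libraries left out in turn, Sec62 lost its call in 14 fits, Atf6 in 6 and Dnajb11 in 1, and the other 9 kept theirs.

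Herpud1 ranged from 53.3 to 91.1 CPM (median 70.3) in the 6 sham triceps libraries and from 96.5 to 197 CPM (median 144) in the 6 T3 libraries. The groups did not overlap and the log2 change was 1.02 ± 0.14 (limma, adjusted p = 0.000101), the same to 2 decimals as its change in gastrocnemius. Canx ranged from 45.2 to 81.6 CPM (median 72.3) in sham and from 85.1 to 179 CPM (median 129) after T3, a change of 0.89 ± 0.16 (adjusted p = 0.000916). Dnajc3 ranged from 18.7 to 33.1 CPM (median 28.1) in sham and from 35.3 to 50.9 CPM (median 45.1) after T3, a change of 0.70 ± 0.13 (adjusted p = 0.000949). Neither gene's groups overlapped.

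Xbp1 ranged from 39.1 to 49.9 CPM (median 43.7) in sham and from 55.5 to 78.6 CPM (median 71.1) after T3, a change of 0.63 ± 0.12 (limma, adjusted p = 0.00158). Hspa5 ranged from 108 to 169 CPM (median 147) in sham and from 117 to 316 CPM (median 154) after T3, and did not pass (0.33 ± 0.18, adjusted p = 0.181). Its 2 highest T3 libraries were replicates 5 and 6, both with the label number 57. Dnajb9 ranged from 24.5 to 61.7 CPM (median 44.1) in sham and from 43.0 to 65.3 CPM (median 52.0) after T3, and did not pass (0.37 ± 0.21, adjusted p = 0.199). The disulphide isomerases Pdia3 and Pdia4 differed by -0.14 ± 0.21 and -0.06 ± 0.22.

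In each triceps group 4 of 6 libraries carry the number 60 and the other 2 the number 57 in their description, a number that no label explains. Within the 60 libraries alone 5 members rose after T3, with a median change of 0.34, and within the 57 libraries alone 7 rose, with a median of 0.46. The number of members called was 9 without T3 replicate 5 and 10 without sham replicate 3. Triceps sham replicate 4 stood apart in cell type markers, with a summed level of 9 macrophage markers of 1007 CPM, where the median of its group was 37.0, and of fibroblast markers of 1458 CPM, where the median was 382. Without that library 11 members rose. Of the 10 fibroblast markers 3 fell in triceps after T3, and of 12 muscle fibre markers 3 fell. Cd68, from the list of 9 macrophage markers, and Cdh15, from the list of 4 satellite cell markers, rose. The summed level of the macrophage list was 34.07 to 77.94 CPM after T3 and 20.93 to 1007 CPM in sham. That of the satellite cell list was 44.66 to 62.95 CPM after T3 and 22.89 to 57.31 CPM in sham. Both summed levels thus overlapped with sham. Ighm ranged from 21.5 to 45.3 CPM in sham and from 3.35 to 13.9 CPM after T3; their part in the result was not tested.

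After T9 injury 0 of 33 members were called in triceps (limma), where 0.00889% of all genes were called, which is 1 gene. The median member differed by 0.13, beside 0.17 for all genes. At an unadjusted p under 0.05 there were 5 members, 4 of them higher, beside 10.5% of all genes, and voom weights also gave 0 after adjustment, as did centring (0.0178% of all genes). In 0 members did every T9 library lie above every sham library, against 0.818% of all genes. Within the 60 libraries and within the 57 libraries the count was 0 too, with medians of 0.21 and 0.08.

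The smallest p of a member was that of Herpud1, with 71.7 to 109 CPM (median 99.5) after T9 and a difference of 0.41 ± 0.14 (limma, 95% interval 0.12 to 0.71, adjusted p = 0.338). Sec62, which helps proteins enter the ER after translation, ranged from 65.6 to 77.9 CPM (median 69.7) in sham and from 72.6 to 116 CPM (median 85.0) after T9, a difference of 0.30 ± 0.11 (adjusted p = 0.375). Derl1 ranged from 46.6 to 66.6 CPM (median 50.6) in sham and from 50.3 to 77.9 CPM (median 67.1) after T9, a difference of 0.28 ± 0.12 (adjusted p = 0.436). All 3 genes overlapped with sham.

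For Canx, with 62.5 to 93.4 CPM (median 75.6) after T9, the difference was 0.15 ± 0.16 (95% interval -0.19 to 0.49). For Xbp1, with 43.7 to 61.2 CPM (median 46.6), it was 0.17 ± 0.12 (-0.09 to 0.43). For Hspa5, with 139 to 186 CPM (median 159), it was 0.20 ± 0.18 (-0.17 to 0.56). The upper bounds of Canx and Xbp1 lie below their fitted changes in the same muscle after T3, 0.89 and 0.63. For Dnajb9, with 27.8 to 55.7 CPM (median 38.1), the difference was -0.08 ± 0.21 and for P4hb -0.09 ± 0.14.

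The difference between the injuries was tested directly in triceps. Here 6 of 33 members were higher after T3 than after T9 and 0 lower (limma), or 18.2%, against 4.95% of all genes that were higher and 2.65% that were lower. The 6 were P4hb, Dnajc3, Canx, Herpud1, Calr and Xbp1, and 4 of them passed with each library left out in turn, Calr and Xbp1 being the exceptions. After centring, 5 members were higher (Canx, P4hb, Atf6, Dnajc3 and Herpud1), against 4.85% of all genes. Within the 60 libraries alone 0 members were called, with a median of 0.20, and within the 57 libraries alone 2, with a median of 0.42.

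P4hb ranged from 168 to 275 CPM (median 258) after T3 and from 115 to 181 CPM (median 139) after T9, a difference of 0.74 ± 0.14 (limma, adjusted p = 0.00353). Only T3 replicate 3, at 168 CPM, and T9 replicate 4, at 181 CPM, overlapped. Dnajc3 ranged from 35.3 to 50.9 CPM after T3 and from 26.8 to 31.4 CPM (median 29.2) after T9, a difference of 0.59 ± 0.13 (adjusted p = 0.00739). It was the 1 member whose groups did not overlap, against 3.3% of all genes. Canx differed by 0.74 ± 0.16 (adjusted p = 0.00788), Herpud1 by 0.60 ± 0.14 (adjusted p = 0.0126) and Xbp1 by 0.46 ± 0.12 (adjusted p = 0.0254). Hspa5 (0.13 ± 0.18) and Dnajb9 (0.45 ± 0.21) did not pass.

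Whether the injury changed the members by a different amount in the 2 muscles was tested within the 12 mice that gave both. For T9 injury, 7 of 33 members had a higher effect in gastrocnemius than in triceps and 0 a lower one (limma). The share was 21.2%, against 3.76% of all genes with a higher and 3.19% with a lower effect. A higher effect does not require a rise in triceps and can include a fall there. The median member differed by 0.48, beside 0.15 for all genes. The 7 were P4hb, Derl1, Derl2, Calr, Xbp1, Hsp90b1 and Manf, a secreted ER stress protein. After centring there were 6 (Hsp90b1, Canx, Calr, P4hb, Xbp1 and Derl1), against 3.24% of all genes.

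P4hb was higher in gastrocnemius than in triceps of the same mouse by 0.12 ± 0.18 (SD, n = 4 mice) in log2 after sham and by 1.16 ± 0.19 after T9. The 4 T9 mice, at 0.96 to 1.41, all lay above the 4 sham mice, at -0.13 to 0.30. The difference of effects was 1.05 ± 0.17 (SE; limma, adjusted p = 0.00414). For Derl1 the gap between muscles was 0.27 ± 0.25 after sham and 1.30 ± 0.15 after T9, a difference of effects of 1.03 ± 0.20 (adjusted p = 0.00968). For Derl2 it was -0.54 ± 0.17 after sham and 0.31 ± 0.21 after T9, a difference of 0.85 ± 0.17 (adjusted p = 0.0115). In both genes too the T9 mice lay above all sham mice.

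For Xbp1 the difference of effects was 0.85 ± 0.19 (limma, adjusted p = 0.0166) and for Calr 0.73 ± 0.16 (adjusted p = 0.0162). For Canx, whose gap was 0.09 ± 0.63 in sham and 1.04 ± 0.08 in T9 mice, it was 0.95 ± 0.28 and did not pass (adjusted p = 0.0618). Hspa5 (0.61 ± 0.21, adjusted p = 0.0987), Herpud1 (0.05 ± 0.21) and Dnajb9 (0.30 ± 0.21) did not pass. The sham mouse of triceps replicate 3, whose 2 muscles deviated from their group means in opposite directions (r = -0.753 across genes), weighs on this comparison: without it 12 members were called. That 2 muscles come from 1 mouse rests on the labels alone in all 12 mice. In the other 11, r was over 0.1. Triceps libraries of different mice with the same replicate number also passed 0.1 in 10 of 18 pairs. This threshold therefore cannot show that libraries share a mouse. Without the T9 mouse of triceps replicate 3 there were 4, and without the 4 libraries of lowest median there was 1, P4hb. Calr, Derl1, Derl2 and P4hb passed with each library left out in turn. Of the 24 such fits, Manf lost its call in 18, Hsp90b1 in 16 and Xbp1 in 2. Without either muscle of the sham mouse of triceps replicate 4, Hsp90b1 stood at 0.73 (limma, adjusted p = 0.075). The gap of Hsp90b1 between muscles was -1.14 in that mouse, and between -0.28 and 0.19 in the other sham mice.

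**Figure D3:**
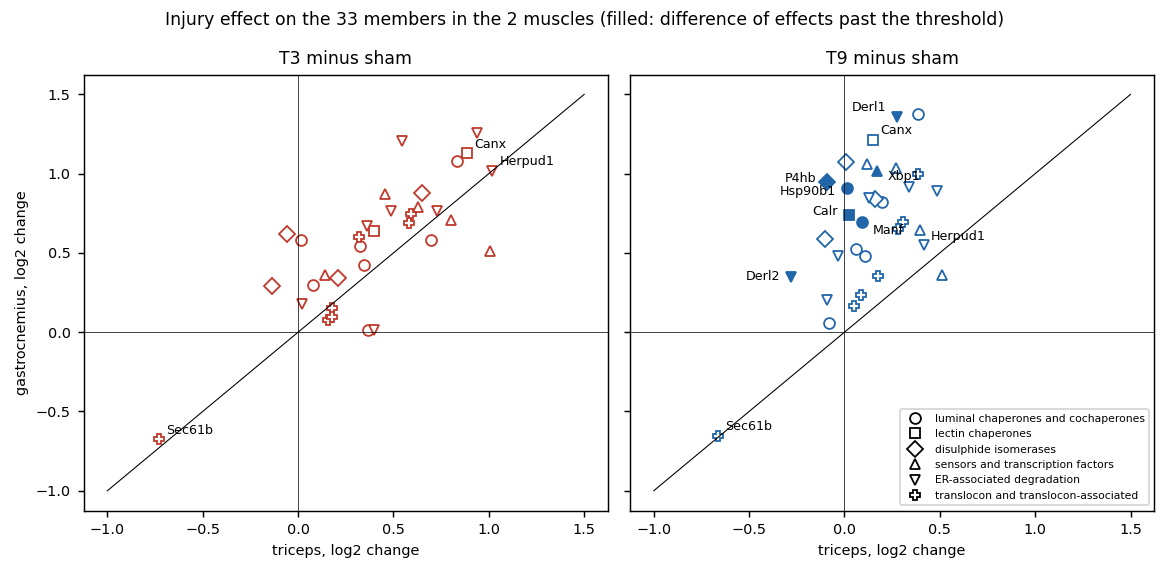
Fitted log2 change against sham in gastrocnemius (vertical) and triceps (horizontal) for each of the 33 members after T3 (left) and T9 (right) injury, from the fits of each muscle; marker shape gives the role, the line marks equal change, and filled symbols are members whose effects differed between muscles within mice (limma adjusted p under 0.05). After T9 most points lie above the line and 7 are filled; after T3 0 are filled.

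For T3 injury 0 of 33 members differed in effect between muscles (limma), beside 1.24% of all genes in either direction. The median member differed by 0.19. At an unadjusted p under 0.05 there were 4 members, all with the higher effect in gastrocnemius, beside 11.8% of all genes in either direction. Voom weights gave 0 after adjustment. The 3 smallest p-values were those of Manf (0.68 ± 0.21), Hsp90b1 (0.79 ± 0.26) and Derl1 (0.62 ± 0.20), with adjusted p of 0.162, 0.185 and 0.185. After centring, Hsp90b1 and Derl1 were called, against 0.533% of all genes. The difference was 0.29 ± 0.28 for Canx, 0.26 ± 0.19 for Xbp1, -0.02 ± 0.21 for Herpud1, 0.52 ± 0.21 for Hspa5 and 0.09 ± 0.21 for Dnajb9.

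In sham mice 5 members were higher and 5 lower in gastrocnemius than in triceps (limma), against 26.8% and 12% of all genes. After centring, 3 were higher and 7 lower, against 17.7% and 20.2% of all genes, and the median member went from 0.12 to -0.16. The higher were Syvn1 (1.31 ± 0.30), a ubiquitin ligase of ERAD, Hyou1 (1.01 ± 0.34), Os9, Eif2ak3 and Herpud1. The lower were Manf (-0.69 ± 0.15), Sec61b (-0.69 ± 0.18), Derl2 (-0.54 ± 0.12), Selenos and Dnajb9. Hspa5 (0.03 ± 0.15), Canx (0.09 ± 0.20), P4hb (0.12 ± 0.12) and Xbp1 (-0.01 ± 0.13) did not pass. The count depended on single mice: without the sham mouse of triceps replicate 3 it was 0, without that of replicate 2 it was 6 and without that of replicate 4 it was 15. It was also 0 without the 4 libraries of lowest median, and without the term for the mouse.

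The members did not vary as 1 block from library to library. Taken as deviations from the mean of each group, over 30 libraries, Hyou1 had a Pearson r of 0.93 with the library median, and Atf6b, Sec61a1, Ssr1, Sel1l and Syvn1 had r of 0.90 to 0.92. Sec61b had r of -0.76, Dnajb9 of -0.74, Derl2 and Selenos each of -0.67, and Manf of -0.43. P4hb (-0.005), Pdia3 (0.06) and Xbp1 (0.17) lay near 0, and Hspa5 (0.52) and Canx (0.77) between. These values are descriptions, and each member is itself among the genes that set the median.

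**Figure D4:**
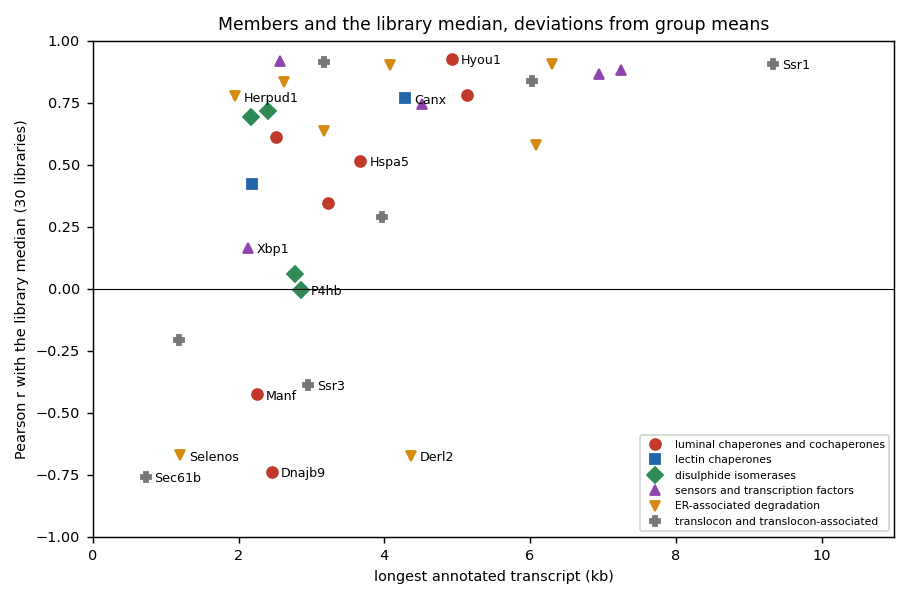
Pearson r between each member and the library median of all genes, both as deviations from their group means over 30 libraries (vertical), against the length of the longest annotated transcript in kilobases (horizontal); colour and shape give the role. Sec61b, Dnajb9, Derl2 and Selenos lie at or below -0.67, P4hb near 0 and Hyou1 at 0.93.

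After each library was centred on its median, the 528 pairs of members had a median r of 0.23 within groups, and 322 were above 0. The genes closest to Hspa5 were Pdia6 (r = 0.77), Hsp90b1 (0.69), Calr (0.57) and Pdia4 (0.57), over the same 30 libraries. Those closest to Xbp1 were Dnajb9 (0.81) and Selenos (0.80). Sec61b and Derl2 had r of 0.94, Hyou1 and Syvn1 also 0.94, and Sec61b and Syvn1 -0.91. Centring takes the same median from every gene, so genes with a like relation to that median can correlate through it. Dnajb9, Selenos, Sec61b and Derl2 had negative r with the library median, and Hyou1 and Syvn1 positive r. Xbp1, with r of 0.17, is not exempt. Taking the median from a gene that does not follow it can itself give that gene a negative relation to it. Shared regulation of these pairs was not tested. The longest transcript of Sec61b measures 723 bases and that of Selenos 1191. Across the 33 members the Spearman correlation of length with the log2 change was 0.23 after T3 and 0.16 after T9 in gastrocnemius and 0.27 after T3 and 0.34 after T9 in triceps, where it was 0.26, 0.35, 0.23 and 0.27 across all genes. Between sham muscles it was 0.46 in members and 0.51 in all genes; members and genes are not independent replicates.

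The members' sum over all 33 genes was 1545 ± 153 CPM (SD, n = 4) in sham, 2356 ± 213 in T3 and 2544 ± 205 in T9 gastrocnemius. In triceps it was 1510 ± 130 (n = 6) in sham, 2034 ± 336 in T3 and 1605 ± 119 in T9. In gastrocnemius the member median exceeded the library median by 1.07 ± 0.10 after sham surgery, 1.15 ± 0.10 after T3 and 1.23 ± 0.13 after T9. In triceps it was 1.16 ± 0.27, 1.39 ± 0.14 and 1.08 ± 0.19 in the same order. The groups of gastrocnemius overlapped on this centred scale.

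**Figure D5:**
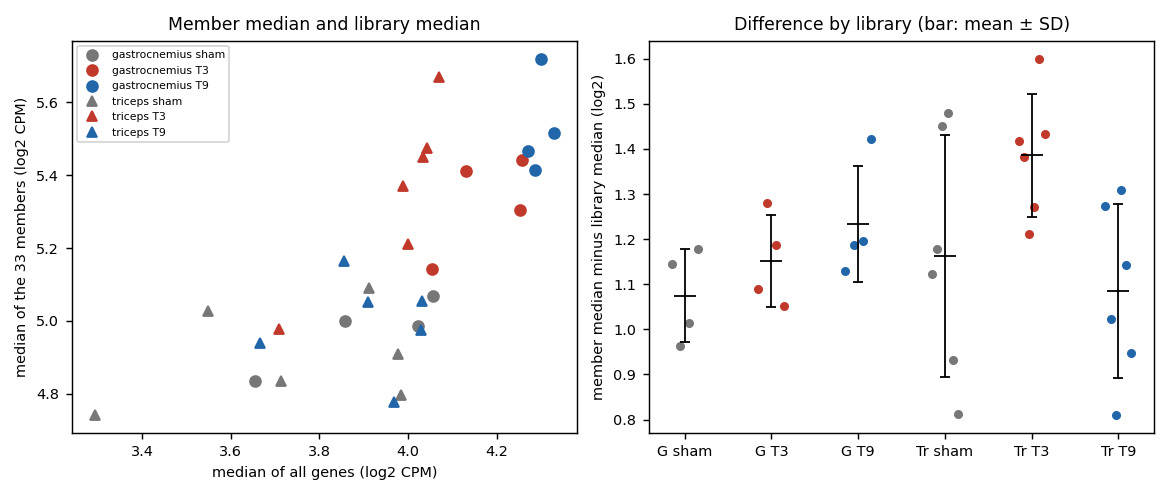
Left, median log2 CPM of the 33 members against the median of all genes in each of the 30 libraries (circles, gastrocnemius; triangles, triceps; grey sham, red T3, blue T9). Right, their difference by group with the mean ± SD; the difference averages 1.39 in triceps T3 and 1.08 in triceps T9, and the gastrocnemius groups overlap.

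Other lists of the same pathway were followed in the same fits. Of all genes, 27.1% rose in gastrocnemius after T3, 37.6% after T9 and 19% in triceps after T3. In the same order 6.65%, 5.67% and 4.32% of all genes fell. The counts of each list below are to be read beside these shares. Of 19 genes of the PERK and ATF4 branch, 9 rose and 1 fell in gastrocnemius after T3, 8 rose and 1 fell after T9, and 7 rose in triceps after T3. Psat1, an enzyme of serine synthesis, rose by 1.55 ± 0.24 and Ppp1r15a, which restores translation, by 1.10 ± 0.21 in gastrocnemius after T3. In triceps after T3 Atf4 rose by 0.88 ± 0.13, Ppp1r15a by 1.78 ± 0.30 and Mthfd2, a mitochondrial folate enzyme, by 1.54 ± 0.27. The T9 effect on Ddit3, which encodes CHOP, in gastrocnemius minus that in triceps was -1.22 ± 0.27 (limma, adjusted p = 0.016), and that on Atf3 was -2.87 ± 0.78 (adjusted p = 0.0434). Both were named for their small adjusted p within the list, and 3.19% of all genes had a lower and 3.76% a higher effect. How many of the 19 genes were called here is not given, so these genes do not describe the list.

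Of 26 other ERAD genes, 15 rose and 1 fell in gastrocnemius after T3, 17 rose after T9, and 14 rose and 1 fell in triceps after T3. Nploc4, a cofactor of the p97 ATPase that pulls proteins from the ER, rose by 2.16 ± 0.21 in gastrocnemius after T3, 1.46 ± 0.21 after T9 and 1.74 ± 0.31 in triceps after T3. Ubxn4, which anchors p97 to the ER, rose by 1.31 ± 0.12 after T3 and 1.32 ± 0.12 after T9 in gastrocnemius. Its T9 effect was larger there than in triceps by 1.24 ± 0.20 (limma, adjusted p = 0.00363).

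Of 18 genes of COPII vesicles and KDEL receptors, which carry proteins between ER and Golgi, 10 rose after T3 and 14 after T9 in gastrocnemius and 4 after T3 in triceps. The cargo receptor Surf4 rose by 1.31 ± 0.15, 0.82 ± 0.15 and 1.14 ± 0.15 in these 3 comparisons. Of 18 N-glycan genes 4, 9 and 5 rose, of 25 translocation genes 6, 7 and 6, and of 32 other folding factors 6, 13 and 4, with 1 of the folding factors lower after T3 in gastrocnemius. The medians of the translocation list (0.19, 0.22 and 0.20) and of the folding list (0.14, 0.32 and 0.09) lay below those of all genes (0.27, 0.40 and 0.23).

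Of 14 genes of the sarcoplasmic reticulum 0 rose and 4 fell in gastrocnemius after T3, 2 rose and 3 fell after T9, and 0 rose and 2 fell in triceps after T3. Casq1, which binds calcium there, fell by 0.80 on the log2 scale in gastrocnemius and by 1.17 in triceps after T3. Sln, an inhibitor of the calcium pump, rose by 2.37 ± 0.57 in gastrocnemius after T9. In triceps after T9 0 genes of any of these 7 lists were called (limma), and their medians lay between 0.01 and 0.32.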

How the data were processed

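RNA of whole muscle was poly(A)-selected and sequenced from stranded libraries as paired ends, per the labels' protocols. HISAT2 2.1.0, featureCounts of Subread 1.5.1, limma and build GRCm38 are named in the submitters' processing notes (no annotation release or low-count filter is named there). The deposited table holds log2 CPM values that the authors made from read counts, with 0.5 reads added to each; multiplying back gave whole reads for 100% of values (tolerance 0.01 reads).

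The deposited log2 values were tested across all genes with limma 3.58.1 (R 4.3.3, variance trend) after a filter of log2 CPM of at least 0 in at least 4 libraries, which left 11248 genes in gastrocnemius and 11249 in the other fits. P-values were adjusted by Benjamini-Hochberg over all genes, with a threshold of 0.05. The gastrocnemius fit held 12 libraries, the triceps fit 18 with a term for the label number (57 or 60), and the comparison of muscles 24 libraries with a term for the mouse. Libraries labelled as 1 mouse deviated together (r over 0.1) in 11 of 12 mice, which does not by itself show that the labels pair them rightly. Nothing shows whether replicates of a group were prepared independently beyond their separate labels, so p-values measure the spread between these libraries.

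Members and lists were chosen with earlier results of these data known. Any member could be named; of other lists, up to 3 genes with the smallest adjusted p per comparison, and markers by list. Libraries were shown for the 3 members of smallest adjusted p and for Hspa5, Xbp1, Canx, Herpud1 and Dnajb9; other members shown by library, and Cd68 and Ighm, were picked after their values were seen. Exon lengths came from GENCODE annotation of GRCm38, and promoter windows from RefSeq (GRCm38.p6). Alternatives were other scalings, filters, weights, covariates and left-out libraries. The fit was tested on simulated reads, drawn with the same spread for all genes. They held no shift of library medians and no differences between mice, so they do not test the fit under either.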

Additional observations from a re-analysis of the deposited data

Results flagged for a closer look

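In 7 of 198 sets of one member in one group, a single library stood apart by Dixon's criterion; chance flags about 1 in 20 such sets. All values here are log2 CPM. Pdia3 was highest in triceps sham replicate 4, at 6.32, where the others lay between 4.74 and 5.17. Pdia6 was lowest in triceps T9 replicate 1, at 4.65. Atf6 was lowest in triceps T3 replicate 4, at 4.22. Dnajb11 was lowest in gastrocnemius sham replicate 4, at 4.98, and Derl2 was highest in the same library, at 4.25. Edem1 was highest in gastrocnemius T3 replicate 1, at 3.08. Sec63 was lowest in triceps sham replicate 3, at 4.02.

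For 7 members the effect of T9 injury differed between muscles by a test of the difference itself (limma, within mice). The effect in gastrocnemius minus that in triceps was 1.05 for P4hb, 1.03 for Derl1, 0.99 for Hsp90b1 and 0.85 for Xbp1. It was 0.85 for Derl2, 0.78 for Manf and 0.73 for Calr, all in log2 units. With libraries left out in turn, Manf lost its call in 18 of 24 fits and Hsp90b1 in 16. The parts of the sham mouse whose muscles deviated in opposite directions, and of that of triceps replicate 4, are given with these results above.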

How the results depend on the processing

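Counts of members called depended on the scaling. With each library centred on its median they were 12 and 10 in gastrocnemius after T3 and T9, 6 in triceps after T3 and 2 for the T3 effect between muscles. With the library median as a covariate they were 4 and 3 in gastrocnemius, 12 for triceps T3 against T9, 5 and 14 for the T3 and T9 effects and 2 between sham muscles. Quantile normalization gave 13 in gastrocnemius after T9 and 6 in triceps after T3. Array weights gave 3 for gastrocnemius T3 against T9, 11 for triceps T3 against T9, and 3 and 15 for the T3 and T9 effects. Fitting only the 2 groups compared gave 12 for gastrocnemius T3 and 1 for T3 against T9. Without the 4 libraries of lowest median the counts were 1 for gastrocnemius T3 against T9, 1 for the T9 effect and 0 between sham muscles. In the gastrocnemius fit this took out sham replicate 4 alone. In the comparison of muscles it took out all 4 and left fewer sham and T9 mice with both muscles. Without the sham mouse of triceps replicate 3 they were 12 for the T9 effect and 0 between sham muscles. Within label number 60 there were 5 and 0 in triceps after T3 and for T3 against T9, and within 57 there were 7 and 2. Shares of all genes called are given above for the main and centred fits only. The counts of the other fits, and of those with a library left out, cannot be set against all genes. Whether members gained or lost calls more than other genes was therefore not tested, nor was the cause.

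With each library left out in turn the counts ran from 14 to 23 and 21 to 27 in gastrocnemius after T3 and T9, 0 to 1 between these injuries, 9 to 17 in triceps after T3, 0 to 0 after T9, 4 to 7 between T3 and T9, 0 to 0 and 4 to 12 for the T3 and T9 effects, and 0 to 15 between sham muscles. The calls that passed in every setting were Canx, Derl1, P4hb and Xbp1 in gastrocnemius after T3, Derl1, P4hb and Xbp1 after T9, Canx and Herpud1 in triceps after T3, and P4hb for the T9 effect.

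With the library median as a covariate the fitted log2 change after T3 in gastrocnemius was -0.12 for Atf6b, -0.061 for Sel1l and -0.10 for Syvn1. After T9 it gave -0.39 for Atf6b, -0.35 for Syvn1, -0.28 for Stt3a, -0.21 for Slc3a2 and Sel1l, -0.15 for Eif2ak3, -0.14 for Hyou1, -0.077 for Ssr1, -0.018 for Herpud1, -0.0079 for Dnajc3 and -0.00094 for Sec61a1. None of these values passed with the covariate (limma, adjusted p 0.28 to 0.998), so a reversal was not shown. Library medians ran from 3.66 to 4.06 in sham, 4.05 to 4.26 in T3 and 4.27 to 4.33 in T9 gastrocnemius. The covariate thus largely follows the injury there. After T9, where the medians did not overlap with sham, the 2 cannot be told apart. Centring gave -0.047 for Ssr1 after T9.

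With the replicate block, 17 and 24 members were called in gastrocnemius after T3 and T9, 12 in triceps after T3 and 5 for T3 against T9. Same-numbered gastrocnemius libraries deviated together in 3 of 12 pairs and triceps libraries in 10 of 18. Libraries with different numbers were not compared in this way, so these counts cannot settle whether the numbers pair libraries. No label says that they do. With no replicate block for the mouse the T9 effect had 6 calls and the sham muscles 0.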
